A study of Mus musculus with 9 samples.

Results

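The genes described here are 10 mouse genes that tell apart kinds and states of skeletal muscle: the myogenic regulators Myf6, Myog, Myod1 and Myf5, the satellite cell factor Pax7, the atrophy ligases Trim63 and Fbxo32, the growth inhibitor Mstn, and the acetylcholine receptor subunits Chrna1 and Chrng. They were taken by symbol, each matched 1 Ensembl gene ID, and they are 10 of the 53700 gene IDs measured. To explore whether the muscle RNA found in the fat of tumour-bearing mice looked like mature, regenerating or wasting muscle, their level was followed in every library and set against the RNA of mature muscle in the same library.

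The transcriptome of eWAT (epigonadal white adipose tissue, the abdominal fat pad next to the ovary) was sequenced in 9 mice in 3 groups of 3, with 1 library a mouse. Tumour-bearing mice (17, 21 and 22) carried an orthotopic tumour of MDA-MB-231, a line of human breast cancer cells that lack the usual hormone receptors, placed in the mammary fat pad. A second group (EV 36, 37 and 41) had received small extracellular vesicles (sEVs) of the same cells through the tail vein, in 10 injections over 5 weeks. The third (4, 7 and 10) is labelled untreated, although the study's methods also speak of control mice given PBS. All were female NSG mice, an immunodeficient strain without mature T, B and NK cells, with no further genetic change, and all were labelled week 12, without stating whether this counts age or time in the experiment.

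Skeletal muscle is built from muscle stem cells, the satellite cells marked by Pax7. Myf5 and Myod1 commit them to the muscle lineage, Myog drives their fusion into fibres, and Myf6 stays on in finished fibres. When muscle is unused, starved or loses its nerve, the ubiquitin ligases Trim63 (MuRF1) and Fbxo32 (atrogin-1) rise and contractile protein is broken down, and a fibre that lost its nerve or is still immature makes more Myog, Chrna1 and the fetal receptor subunit Chrng.

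Libraries held 20097743 to 26149300 estimated counts, and levels are given as CPM, counts scaled to the library total. The libraries differed in tissue makeup in ways that crossed the groups. The summed CPM of 5 ovary markers was 3048 in EV 36, 4312 in EV 41 and 7341 in untreated 10, and 4.08 to 10.9 in the other 6. The summed CPM of 5 smooth muscle markers was 13482 in untreated 7 and 447 to 3507 in the other 8. The labelled tissue was checked on 6 adipocyte markers, which summed to 19495 to 20683 CPM in tumour-bearing mice, 6257 to 27156 CPM in mice receiving sEVs and 1610 to 27051 CPM in untreated mice, lowest in untreated 7.

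Mature skeletal muscle RNA, which serves as the measure for the 10 genes, was summed over 24 genes of contraction, calcium release and muscle energy supply. It came to 3413, 8283 and 4513 CPM in tumour-bearing mice 17, 21 and 22, against 48.2, 101 and 42.8 CPM in EV 36, 37 and 41 and 38.2, 516 and 64.1 CPM in untreated 4, 7 and 10. In each tumour-bearing library all 24 genes were above 10 CPM. In the other 6 libraries 1 to 4 of the 24 were, and in untreated 7 the sum rested on Acta1, skeletal actin (61.65%), and Ckm, muscle creatine kinase (19.04%). In bulk tissue, more muscle cells and more muscle RNA per cell cannot be told apart.

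Myf6 (ENSMUSG00000035923, chr10:107492853-107494737, minus strand, GRCm38), also called Mrf4 and the myogenic factor most abundant in adult fibres, was the clearest of the regulators. It had 2.83, 7.37 and 10.5 CPM in tumour-bearing mice 17, 21 and 22, from 59, 162 and 235 counts. There was 1 count in EV 36 and none in EV 37 and 41 or in any untreated library. The groups did not overlap. Against a floor of 3 counts per library, Myf6 was at least 52.8-fold higher in tumour-bearing than in untreated mice. Against sEV mice the ratio was 476, with a 95% exact counting interval of 85.1 to 18857 that rests on 1 count and covers counting error only. By edgeR's quasi-likelihood test over all genes, Myf6 did not pass in either comparison, with an adjusted p of 0.05918 against untreated and 0.07013 against sEV mice. By DESeq2 it passed in both, with adjusted p of 5.082e-10 and 2.037e-08. It was also past the edgeR threshold when the filter on low counts was left out, with adjusted p of 0.02445 and 0.02734, where edgeR called 0.16% and 0.206% of all genes higher.

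Myog (ENSMUSG00000026459, chr1:134289989-134292548, plus strand), myogenin, which switches myoblasts to fusion and is also induced in denervated fibres, had 0.960, 0.455 and 3.29 CPM in tumour-bearing mice 17, 21 and 22 and 0 counts in all 6 other libraries. Tumour-bearing 22 was high and 21 low, although 21 held the most mature muscle RNA. The rise was at least 12.0-fold over untreated and at least 11.9-fold over sEV mice, against the same floor. It did not pass by edgeR (adjusted p = 0.4177 against untreated and 0.3513 against sEV mice) and passed by DESeq2 (adjusted p = 0.001924 and 0.001378).

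The Myog promoter is shown because the other myogenic factors are known to act on it through E-boxes, the 6-base motif CANNTG. The window covers 250 bases before to 50 after the start site, from RefSeq on GRCm38.p6, chr1:134289754-134290053, plus strand, 5′ to 3′, with E-boxes in capitals.
Myog: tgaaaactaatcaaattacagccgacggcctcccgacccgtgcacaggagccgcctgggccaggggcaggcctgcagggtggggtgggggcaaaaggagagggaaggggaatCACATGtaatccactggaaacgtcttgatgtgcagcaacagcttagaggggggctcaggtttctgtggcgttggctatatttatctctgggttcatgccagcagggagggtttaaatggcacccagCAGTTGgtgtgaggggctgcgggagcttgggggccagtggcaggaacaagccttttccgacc
Its E-boxes begin at -138 and -12, counted from the start site. Of 32851 mouse promoters of this length, 72.31% held at least 1 CANNTG on either strand and 17.61% held 3 or more. A match thus describes the letters of this window and does not by itself show a site in use.

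Myod1 (ENSMUSG00000009471, chr7:46376474-46379099, plus strand), the factor of activated satellite cells and of fast fibres, had 5, 11 and 20 counts in tumour-bearing mice 17, 21 and 22, or 0.240, 0.501 and 0.890 CPM. The 6 other libraries had 0 counts. Against the floor it was at least 4.17-fold higher than in untreated mice and at least 4.11-fold higher than in sEV mice, which are bounds and no tests. Myod1 was among the 4 genes, with Myf5, Pax7 and Chrng, that were left out of the edgeR fit by its filter on low counts. Without the filter Myod1 had an adjusted p of 0.476 by edgeR, and by DESeq2 it had 0.06706, both against untreated mice.

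Pax7 (ENSMUSG00000028736, chr4:139737062-139833528, minus strand), which marks quiescent satellite cells, was at the edge of detection. It had 5, 1 and 11 counts in tumour-bearing mice 17, 21 and 22, or 0.240, 0.0455 and 0.489 CPM. No library of the sEV group had a count, and untreated 7 had 1 count, the same number as tumour-bearing 21. The ratio to untreated mice was 18.2, with a 95% counting interval of 2.85 to 760, and the rise over sEV mice was at least 1.95-fold. Without the filter, edgeR gave Pax7 a log2 fold change of 4.02 ± 1.55 (SE) against untreated mice with an adjusted p of 0.5061.

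Myf5 (ENSMUSG00000000435, chr10:107482908-107486134, minus strand), the earliest of the lineage factors, went another way. It had 0.0480, 0.182 and 0.178 CPM in tumour-bearing mice 17, 21 and 22, from 1, 4 and 4 counts. The level was 0.857, 0 and 0.323 CPM in EV 36, 37 and 41, and 0, 0.0382 and 0.0995 CPM in untreated 4, 7 and 10. Its highest level was therefore in EV 36 and 41, the sEV libraries that also held ovary RNA, whose part in it was not tested. The ratio of tumour-bearing to untreated mice was 3.21 with a 95% counting interval of 0.801 to 18.4, which spans no difference. The 3 counts in the sEV group, 19, 0 and 7, were the same as those of Trim63.

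**Figure D1:**
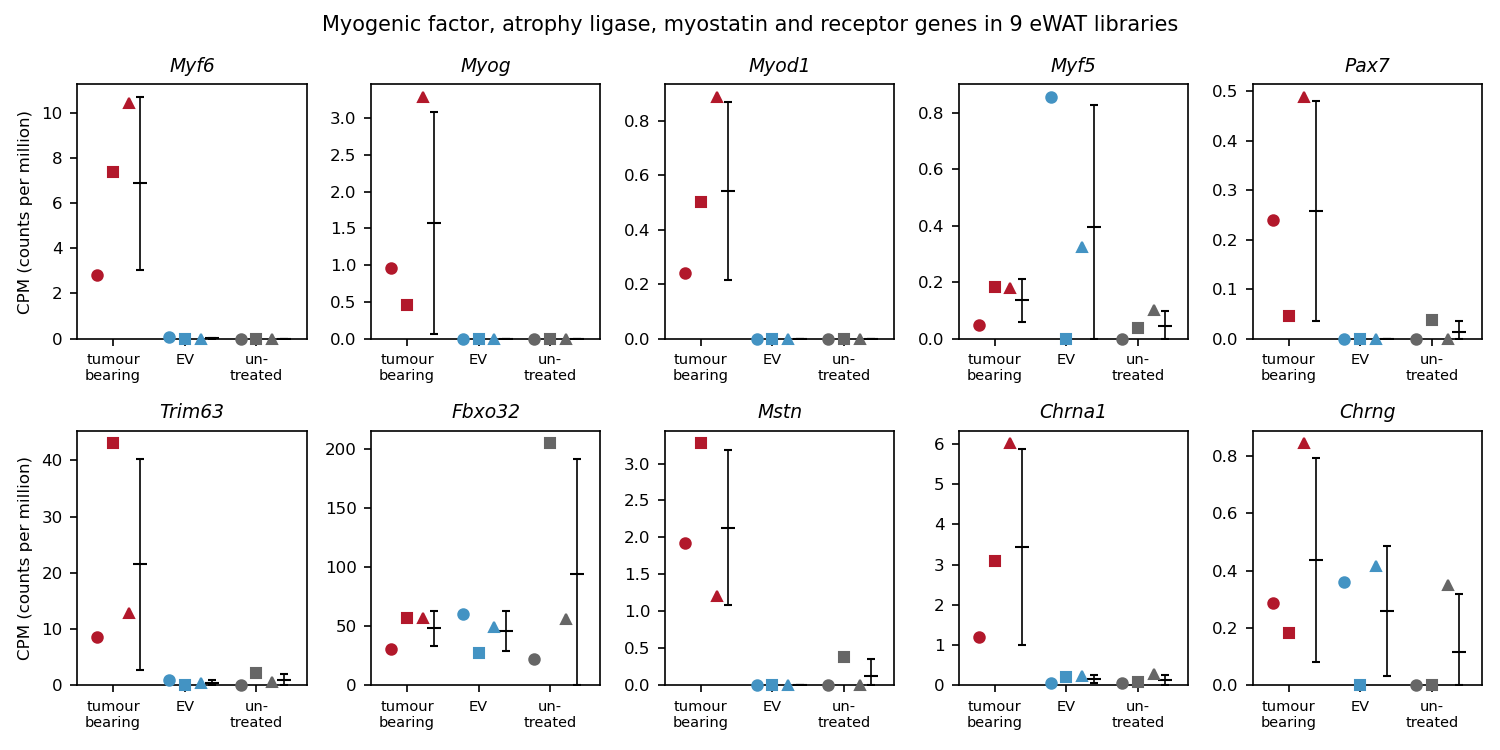
CPM of the 10 genes (y axis, linear from 0, its own scale in each panel) in tumour-bearing mice (circle 17, square 21, triangle 22), mice receiving sEVs (36, 37 and 41 by the same symbols) and untreated mice (4, 7 and 10), with the mean and SD of each group in black (n = 3, lower bars stopped at 0). Myf6, Myog and Myod1 had counts in all 3 tumour-bearing libraries and at most 1 count in any other, whereas Fbxo32 was highest in untreated 7, at 205 CPM.

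Trim63 (ENSMUSG00000028834, chr4:134315120-134329629, plus strand), the muscle ring finger ligase MuRF1 that marks contractile proteins for breakdown, had 8.59, 43.1 and 12.9 CPM in tumour-bearing mice 17, 21 and 22. It had 0.857, 0 and 0.323 CPM in EV 36, 37 and 41, and 0, 2.14 and 0.597 CPM in untreated 4, 7 and 10. The tumour-bearing group lay above both others, and mouse 21 stood out within it. The log2 fold change was 5.01 ± 1.59 (SE) over untreated mice (edgeR adjusted p = 0.4177, DESeq2 adjusted p = 0.01676) and 6.34 ± 1.71 over sEV mice (edgeR adjusted p = 0.3513, DESeq2 adjusted p = 0.0006446). Without tumour-bearing 21 the value against untreated mice was 3.90, and without untreated 7 it was 6.73, and neither passed by edgeR. Against sEV mice it was 5.23 without tumour-bearing 21 and 7.54 without EV 36, which did not pass by edgeR either. Of the tumour-free libraries with counts, untreated 7 held 516 CPM of mature muscle RNA, while EV 36, EV 41 and untreated 10 held ovary RNA, and the part of either was not tested.

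The promoter of Trim63 is shown because FoxO factors are known to switch this gene on in wasting muscle. The sequence is from RefSeq on GRCm38.p6, chr4:134314870-134315169, plus strand, with the match to the FoxO motif in capitals (GTAAACA read on the other strand).
Trim63: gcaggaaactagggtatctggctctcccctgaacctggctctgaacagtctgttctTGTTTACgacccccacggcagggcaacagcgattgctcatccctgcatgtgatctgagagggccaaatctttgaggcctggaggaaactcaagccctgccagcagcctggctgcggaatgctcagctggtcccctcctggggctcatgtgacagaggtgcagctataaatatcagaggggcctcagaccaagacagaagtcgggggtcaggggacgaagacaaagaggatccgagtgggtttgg
The match began at -194 and was present on either strand in 3.65% of the 32851 promoters. The window also held 3 matches to CANNTG and a TATAAA at -31. TATAAA was present in 13.62% of promoters, counted on either strand.

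Fbxo32 (ENSMUSG00000022358, chr15:58175879-58214932, minus strand), the F-box protein atrogin-1 of the other atrophy ligase, did not follow Trim63. Its level was 30.6, 57.1 and 56.5 CPM in tumour-bearing mice 17, 21 and 22, against 60.5, 27.1 and 49.5 CPM in EV 36, 37 and 41 and 21.7, 205 and 55.8 CPM in untreated 4, 7 and 10. The 3 groups overlapped throughout, and the highest value was in untreated 7, the library richest in smooth muscle RNA. The log2 fold change was -0.59 ± 0.66 against untreated mice (edgeR adjusted p = 0.6694, DESeq2 0.6827) and 0.54 ± 0.66 against sEV mice (edgeR adjusted p = 0.6668, DESeq2 0.6814). Without untreated 7 the first value turned to 0.68. The gene overlaps an annotated antisense gene, Gm15943, and whether the counting used strand is not given for these files, so their reads may not be told apart.

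Mstn (ENSMUSG00000026100, chr1:53061640-53068079, plus strand), myostatin, which fibres secrete to hold muscle growth back, had 1.92, 3.28 and 1.20 CPM in tumour-bearing mice 17, 21 and 22. All 3 libraries of the sEV group had 0 counts. Untreated 7 had 0.382 CPM, from 10 counts, and untreated 4 and 10 had 0 counts. The groups did not overlap, and the 1 untreated library with Mstn was the one with the most mature muscle RNA. The rise over sEV mice was at least 16.1-fold against the floor (edgeR adjusted p = 0.3513, DESeq2 adjusted p = 0.001053). Over untreated mice the log2 fold change was 4.34 ± 1.53 and passed by neither tool (edgeR adjusted p = 0.4177, DESeq2 adjusted p = 0.1066). Without untreated 7 it was fitted at 8.84 against libraries with 0 counts, a value that is no bound.

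Chrna1 (ENSMUSG00000027107, chr2:73563215-73580338, minus strand), the subunit of the muscle acetylcholine receptor that binds the transmitter, had 1.20, 3.08 and 6.02 CPM in tumour-bearing mice 17, 21 and 22. The level was 0.0464, 0.212 and 0.225 CPM in EV 36, 37 and 41 and 0.0424, 0.0849 and 0.275 CPM in untreated 4, 7 and 10. Every tumour-bearing library was above every other, with 22 highest. The log2 fold change was 5.00 ± 0.98 over untreated mice (edgeR adjusted p = 0.1862, DESeq2 adjusted p = 1.279e-05) and 4.72 ± 0.96 over sEV mice (edgeR adjusted p = 0.1768, DESeq2 adjusted p = 1.798e-05). Without untreated 10, which had the highest Chrna1 of the tumour-free libraries, the first value was 5.86.

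Chrng (ENSMUSG00000026253, chr1:87204657-87212694, plus strand), the fetal subunit that the adult receptor replaces by Chrne and that returns in denervated fibres, had 0.288, 0.182 and 0.845 CPM in tumour-bearing mice 17, 21 and 22, from 6, 4 and 19 counts. It had 0.361, 0 and 0.415 CPM in EV 36, 37 and 41 and 0, 0 and 0.348 CPM in untreated 4, 7 and 10. The groups overlapped, and the 3 tumour-free libraries with Chrng counts were the 3 with ovary RNA, whose part was not tested. Without the filter the log2 fold change was 2.43 ± 1.55 over untreated mice (edgeR adjusted p = 0.6204) and 1.28 ± 1.46 over sEV mice (edgeR adjusted p = 0.6769).

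The promoters of both receptor subunits are set side by side because myogenic factors are known to act on receptor genes through E-boxes, which are in capitals. They are from RefSeq on GRCm38.p6, Chrna1 at chr2:73580289-73580588 on the minus strand and Chrng at chr1:87205561-87205860 on the plus strand, each 5′ to 3′.
Chrna1: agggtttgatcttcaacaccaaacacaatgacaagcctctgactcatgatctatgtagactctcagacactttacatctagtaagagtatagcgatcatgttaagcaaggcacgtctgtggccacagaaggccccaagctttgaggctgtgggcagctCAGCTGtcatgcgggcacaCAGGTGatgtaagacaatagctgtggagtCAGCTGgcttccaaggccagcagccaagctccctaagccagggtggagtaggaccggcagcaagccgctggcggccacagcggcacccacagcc
Chrng: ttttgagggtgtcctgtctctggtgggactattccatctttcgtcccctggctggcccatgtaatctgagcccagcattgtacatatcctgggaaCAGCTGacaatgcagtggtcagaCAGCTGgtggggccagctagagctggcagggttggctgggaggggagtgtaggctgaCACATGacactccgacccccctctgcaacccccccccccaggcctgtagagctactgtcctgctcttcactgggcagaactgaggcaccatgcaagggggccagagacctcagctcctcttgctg
Each held 3 matches to CANNTG, of which 2 read CAGCTG, a form found in 16.3% of promoters. They began at -92, -73 and -44 in Chrna1 and at -155, -132 and -75 in Chrng. These promoters thus resembled each other in this count, while the levels of the 2 genes in the tumour-free libraries followed different patterns. Of the 10 genes, 7 had a promoter in the table used. Trim63 and Chrng had 3 E-boxes as did Chrna1, Mstn had 4, Myog 2, and Myf5 and Pax7 had 0 in their windows. The windows of Chrng and Pax7 lie inside the gene spans given above, whose annotation starts both genes further upstream. Their E-box counts thus depend on the start site used.

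Over all 10 genes, 6 passed the filter on low counts, and Myog, Myf6, Mstn and Chrna1 did so only through the tumour-bearing libraries, so their counts and medians describe and do not test. In tumour-bearing versus untreated mice, 0 of the 6 passed by edgeR, where 0.218% of 17876 genes were called higher and 0% lower. At an unadjusted p under 0.05, 5 of 6 were higher, against 3.53% of all genes higher and 8.32% lower. DESeq2 called 4, against 1.22% of all genes called higher and 2.56% lower, and limma on the deposited TPM columns called 0. In 5 of 6 the tumour-bearing libraries were all above the untreated ones, against 4.32% of all genes. Their median log2 fold change was 5.00, or 4.67 with Myog and Myf6 at their bounds, against a median of -0.12 over all genes.

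In tumour-bearing versus sEV mice, 0 of 6 passed by edgeR, where 0.246% of all genes were called higher and 0.0112% lower. DESeq2 called 5, against 1.2% of genes called higher and 3.25% lower, and limma called 0. At an unadjusted p under 0.05, 5 of 6 were higher, against 3.8% of all genes higher and 10.3% lower. In 5 of 6 the tumour-bearing libraries were all above, against 4.06% of all genes. The median was 7.35, or 4.37 with Myog and Mstn at their bounds, against -0.06 over all genes. Both comparisons use the same tumour-bearing libraries.

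Injection of sEVs was not accompanied by a detectable change of these genes. In sEV versus untreated mice, 0 of 6 passed by edgeR (adjusted p = 1 for each), 0 at an unadjusted p under 0.05 and 0 by DESeq2 or limma, where edgeR called 0% of all genes higher and 0.00559% lower and DESeq2 0.0267% in each direction. The log2 fold changes were -1.33 ± 1.45 for Trim63, -1.13 ± 0.66 for Fbxo32 and 0.27 ± 0.91 for Chrna1. Myog had 0 counts on both sides. With 1 count of Myf6 and 10 of Mstn over these 6 libraries, a difference between them was not detectable at this depth.

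To separate the state of the muscle from its amount, each gene was divided by the mature muscle RNA of its own library. Per 1000 counts of the 24 mature muscle genes, Myf6 had 0.830, 0.890 and 2.32 counts in tumour-bearing mice 17, 21 and 22. Myog had 0.281, 0.0549 and 0.730, a 13.3-fold range, and Chrna1 had 0.352, 0.372 and 1.33. Mouse 22 was thus highest in all of them, while mice 17 and 21 were near each other in Myf6 and Chrna1 but not in Myog. Chrng, at 0.0844, 0.0220 and 0.187, and Pax7, at 0.0703, 0.0055 and 0.108, had the same order as Myog.

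Mstn had 0.563, 0.396 and 0.266 counts per 1000 in tumour-bearing mice 17, 21 and 22, the opposite order to Myf6 and Chrna1. Trim63 had 2.52, 5.20 and 2.86 and was highest in mouse 21. In untreated 7, the tumour-free library with the most mature muscle RNA, Trim63 had 4.15 and Mstn 0.742 per 1000, against 3.53 ± 1.46 and 0.408 ± 0.149 in tumour-bearing mice (SD, n = 3). The Trim63 share of untreated 7 thus lay inside the range of the tumour-bearing libraries, and Myf6, Myog and Chrna1 in that library had 0, 0 and 0.165 per 1000. The mature muscle sum of untreated 7 was 61.65% Acta1 and 19.04% Ckm, whereas Acta1 made up 17.4% to 20.4% in tumour-bearing libraries. The divisors thus differ in makeup, which limits this comparison. With 1 such library the values stand side by side and no test was made. In the other tumour-free libraries the mature muscle sum was 38.2 to 101 CPM, so their ratios rest on few counts. There Trim63 had 17.8, 0 and 7.55 per 1000 in EV 36, 37 and 41, and 0 and 9.32 in untreated 4 and 10. Chrna1 had 0.963, 2.09 and 5.27 in EV 36, 37 and 41, and 1.11 and 4.29 in untreated 4 and 10. Myf6 had 0.935 in EV 36, from 1 count. Shares above those of tumour-bearing mice thus occurred for Trim63 and Chrna1. Fbxo32 had 6.89 to 12.5 per 1000 in tumour-bearing and 268 to 1254 in the other libraries, highest where mature muscle RNA was low.

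**Figure D2:**
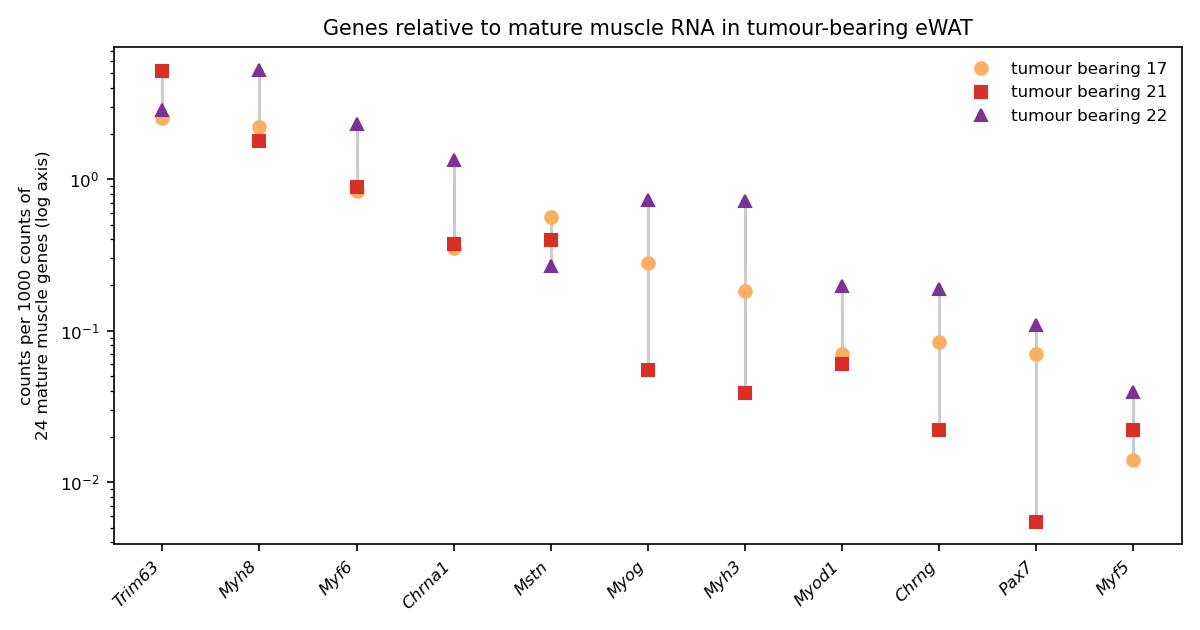
Counts per 1000 counts of the 24 mature muscle genes (y axis, log scale) for 9 of the 10 genes and the developmental myosins Myh3 and Myh8 in the 3 tumour-bearing libraries, 1 point a library. Mouse 22 was highest in Myf6, Myog and Chrna1, at 2.32, 0.730 and 1.33, and mouse 21 was highest in Trim63, at 5.20.

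Compared per kilobase of exon, Trim63, Fbxo32 and Myf6 were the 3 highest of the 10 in every tumour-bearing library, in an order that changed between libraries. Trim63 had 3.02, 15.2 and 4.54 CPM per kb in mice 17, 21 and 22. Myf6 had 2.24, 5.84 and 8.28 CPM per kb, and Fbxo32 4.38, 8.18 and 8.09. These 3 did not differ beyond the spread between libraries. Among the regulators, Myf6 was above Myog (0.642, 0.304 and 2.20 CPM per kb), Myog above Myod1 (0.129, 0.269 and 0.478), and Myod1 above Myf5 and Pax7 (at most 0.0874) in each of the 3 libraries. In mouse 21 the step between Myog and Myod1 rested on 10 and 11 counts.

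Genes of the same biology, from lists written with earlier results of these data known, show what surrounded the 10. Of 24 mature muscle genes, 14 rose in tumour-bearing over untreated mice by edgeR, which called 0.218% of all genes higher. DESeq2 called 21 higher, against 1.22% of all genes, and limma on the deposited TPM columns called 0. The median log2 fold change was 6.49, against -0.12 over all genes. In all 24 the tumour-bearing libraries lay above the untreated ones, against 4.32% of all genes. The count by edgeR was 6 without tumour-bearing 22, 9 without untreated 10, 4 with a term for 3 sets of libraries and 0 without the 3 libraries with ovary RNA, which leaves 1 sEV library, while all 24 values stayed positive in each of these fits. Actn3, the alpha-actinin of fast fibres, rose by a log2 fold change of 6.28 ± 0.51, and Mylpf, their regulatory light chain, by 7.94 ± 0.72 (edgeR adjusted p = 0.007569 for each). Neb, the thin filament ruler nebulin, and Ryr1, the calcium release channel, rose by 6.46 and 7.89 (adjusted p = 0.007743 and 0.009989). The others named by the rule, Mb, Tnnc2, Pvalb, Myh2, Atp2a1 and Ttn, rose by log2 fold changes of 8.43 to 12.2.

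**Figure D3:**
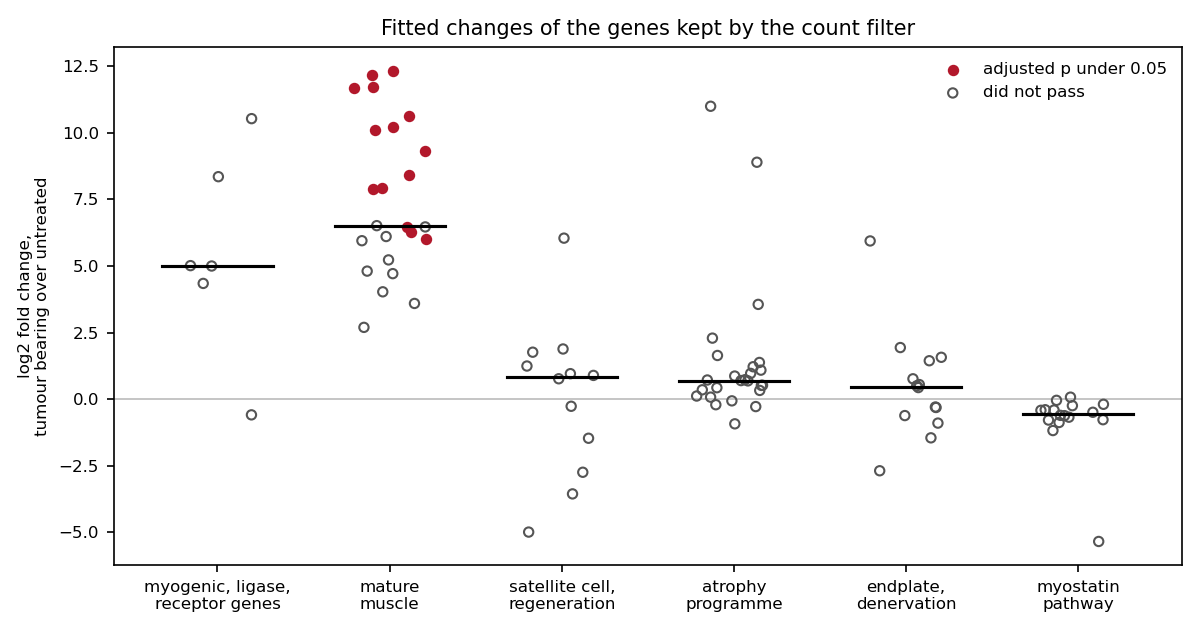
Log2 fold change of tumour-bearing over untreated mice (y axis) for the genes of 6 lists that passed the count filter, 1 circle a gene, with a black line at the median. Filled circles had an edgeR adjusted p under 0.05. All 14 called genes were of the mature muscle list, whose median was 6.49, and 0 were among the 10 genes or the other 4 lists.

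Of 16 genes of satellite cells and regenerating fibres, 12 were tested. By edgeR 0 were called, and 3 had an unadjusted p under 0.05 (2 higher and 1 lower), against 3.53% of all genes higher and 8.32% lower. DESeq2 called 3 higher, against 1.22% of all genes, and limma 0. The median log2 fold change was 0.83, against -0.12 over all genes. Myh8, the perinatal myosin, had 7.59, 14.8 and 23.9 CPM in tumour-bearing mice 17, 21 and 22. It had 0 to 0.560 CPM in sEV and 0.0424 to 0.481 CPM in untreated mice. Its log2 fold change over untreated mice was 6.04 ± 1.30 (edgeR adjusted p = 0.2769, DESeq2 adjusted p = 1.145e-06). Myh3, the embryonic myosin, chosen after its values were seen, had 0.624, 0.319 and 3.25 CPM in tumour-bearing mice and 0 counts elsewhere, in the order of Myog across the 3 mice. The filter left Myh3 out of the edgeR fit, and by DESeq2 it passed against untreated mice (adjusted p = 0.008143). Mef2c, a partner of the myogenic factors, had a log2 fold change of 0.89 ± 0.20 (edgeR adjusted p = 0.2922, DESeq2 adjusted p = 0.006481). Those of Actc1, Megf10, Tnnt2 and Myl4 were -4.99, -2.75, -3.56 and 0.76, and none of these 4 was called by edgeR or DESeq2.

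In the atrophy programme, 0 of 25 genes were called by edgeR, 6 were higher at an unadjusted p under 0.05, DESeq2 called 2 higher and limma 0. Over all genes, 3.53% were higher at that p and DESeq2 called 1.22% higher. Of the 25, 21 had positive values, against 42.2% of all genes, and the median was 0.69, against -0.12 over all genes. The 6 adipocyte markers were also all positive in this comparison, with a median of 0.83. The part of fat content in the values of this list was not tested. The 2 called by DESeq2 were Trim54 and Trim55, the relatives MuRF3 and MuRF2 of Trim63, which belong to the sarcomere. Trim54 had 5.04, 13.4 and 9.48 CPM and Trim55 1.58, 2.46 and 2.54 CPM in tumour-bearing mice, with 0 counts in the other 6 libraries, so that Trim54 was at least 71.4-fold and Trim55 at least 16.8-fold higher than in untreated mice (edgeR adjusted p = 0.1013 and 0.1663). Both passed the filter on low counts only through the tumour-bearing libraries, so the counts of called genes in this list describe and do not test. Trim54 per 1000 mature muscle counts was 1.48, 1.62 and 2.10, a narrower range than that of Trim63.

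Tumour-bearing 21, which held the most mature muscle RNA, was the highest of the 3 tumour-bearing libraries in 13 of the 25 genes, and of all 9 libraries in 9. The same was not counted over all genes, so these numbers do not set the list apart. Pdk4, the kinase that shuts off glucose oxidation in fasting, had 171, 699 and 346 CPM in mice 17, 21 and 22, against 55.2 to 83.2 CPM in sEV and 28.9 to 136 CPM in untreated mice (log2 fold change 2.29 ± 0.78 over untreated, edgeR adjusted p = 0.4177). The metallothionein Mt2 had 104, 555 and 145 CPM in tumour-bearing mice, against 126 to 153 CPM in sEV and 60.0 to 138 CPM in untreated mice (edgeR adjusted p = 0.42). Chosen after their values were seen, Mt1 had 142, 696 and 163 CPM and Ddit4, an inhibitor of mTOR signalling induced by stress and glucocorticoids, 28.0, 332 and 34.3 CPM in the same mice. For Ddit4 the sEV and untreated groups had 50.6 to 93.6 and 85.6 to 109 CPM, so that mice 17 and 22 lay below every tumour-free library. Per 1000 mature muscle counts, Ddit4 had 8.20, 40.0 and 7.60 in mice 17, 21 and 22, Mt1 41.7, 84.0 and 36.1, and Mt2 30.4, 67.0 and 32.1. On that scale Pdk4 had 50.1, 84.4 and 76.7, so that mouse 21 was close to 22. Klf15, a glucocorticoid target of the same list, also chosen after its values were seen, had 40.2, 18.5 and 26.7 on that scale. It was lowest in mouse 21, whose divisor was the largest. In the tumour-free libraries the same ratio was 190 to 2848 for Ddit4, 184 to 4769 for Mt1 and 116 to 3493 for Mt2. For Pdk4 it was 265 to 3076 and for Klf15 58.9 to 4071. These genes thus had RNA where mature muscle RNA was low, so their ratios do not describe muscle alone. Cblb and Fbxo40, 2 further ligases, had log2 fold changes of 0.68 ± 0.25 and 3.56 ± 1.55 (edgeR adjusted p = 0.4177 and 0.4205).

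**Figure D4:**
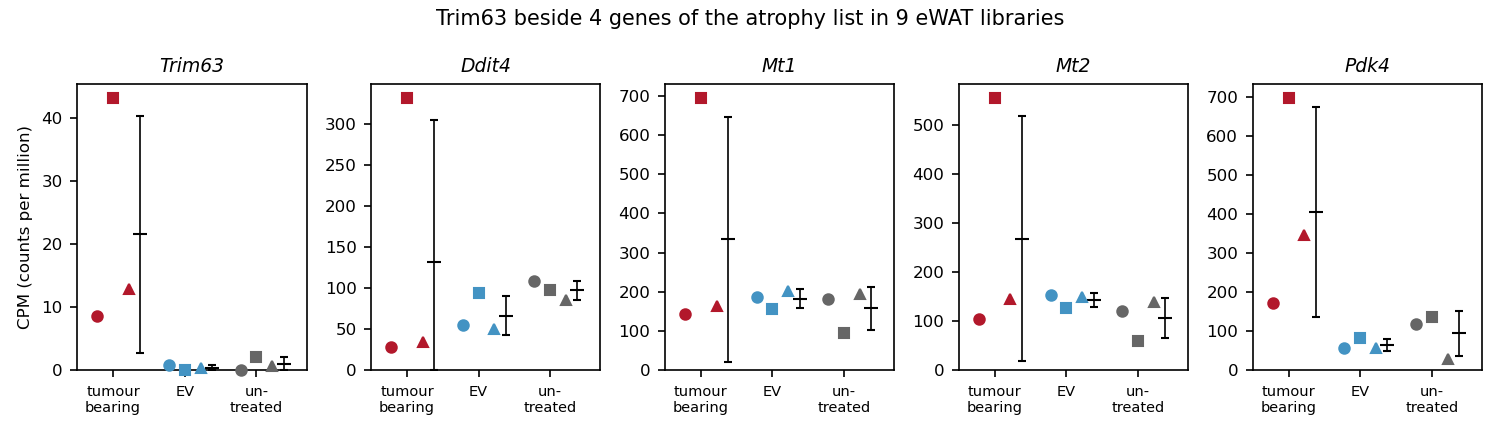
CPM of Trim63, Ddit4, Mt1, Mt2 and Pdk4 (y axis, linear from 0, its own scale in each panel) in tumour-bearing mice (circle 17, square 21, triangle 22), mice receiving sEVs (36, 37 and 41 by the same symbols) and untreated mice (4, 7 and 10), with the mean and SD of each group in black (n = 3, lower bars stopped at 0). The genes beside Trim63 were shown for their high level in mouse 21. Mouse 21 was thus the highest of the 9 in all 5 genes, with 43.1 CPM of Trim63 and 332 CPM of Ddit4. Of the 25 genes of the atrophy list, mouse 21 was the highest of the 9 libraries in 9, which was not counted over all genes.

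Of 16 genes of the endplate, where nerve meets fibre, and of its response to denervation, 14 were tested and 0 were called by edgeR. At an unadjusted p under 0.05, 2 were higher and 1 lower, against 3.53% of all genes higher and 8.32% lower. DESeq2 called 1 higher, against 1.22% of all genes, and limma 0. The median log2 fold change was 0.47, against -0.12 over all genes. The gene called by DESeq2 was Scn4a, the sodium channel of adult fibres, at 11.5, 11.5 and 15.7 CPM in tumour-bearing mice, 0 to 0.496 CPM in sEV mice and 0.0424 to 0.398 CPM in untreated mice (edgeR adjusted p = 0.1456, DESeq2 adjusted p = 1.557e-12). Dok7, which activates the organiser kinase Musk, and Colq, the tail of synaptic acetylcholinesterase, had log2 fold changes of -2.69 ± 1.05 and 1.94 ± 0.76 (edgeR adjusted p = 0.4177 for each). Those of Gadd45a, which is induced by denervation, Ache and Musk were -1.46, 0.76 and 1.57. The adult receptor subunit Chrne, chosen after its values were seen, had at most 0.178 CPM in tumour-bearing mice.

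Around Mstn, 16 of 17 genes of its ligand, receptor and inhibitor pathway were tested, 0 were called by edgeR, DESeq2 or limma, and 2 were lower at an unadjusted p under 0.05. The median was -0.55 against -0.12 over all genes. Of the 16, 1 was positive, against 42.2% of all genes, of which 8.32% were lower at that p. Inhba, the activin A subunit, had 1.68, 1.05 and 2.76 CPM in tumour-bearing mice 17, 21 and 22, against 104, 1.44 and 109 CPM in EV 36, 37 and 41 and 1.58, 2.45 and 335 CPM in untreated 4, 7 and 10. Its high values were in the 3 libraries with ovary RNA, whose part was not tested. Smad7, which blocks the pathway, and the receptor Tgfbr1 had log2 fold changes of -0.79 ± 0.34 and -0.77 (edgeR adjusted p = 0.4205 and 0.4316), and Gdf11, Fstl3 and Smad2 had -0.88, -0.68 and -0.42.

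As a description of pattern, the 3 genes nearest in pattern over the 9 libraries were found for each of the 6 genes kept by the filter, by the mean absolute difference of centred log2(CPM + 0.5). All share the same 9 libraries, which differ in tissue makeup. For Myf6 they were Cacng1 (0.15), Smtnl1 (0.19) and Sln (0.20), and for Mstn Asb15 (0.13), Pla2g4e (0.19) and Tmem233 (0.26). For Chrna1 they were Trim55 (0.31), Camk2a (0.31) and Cacng6 (0.33), and for Myog Zyg11a (0.30), Selp (0.31) and Cacng6 (0.31). Trim63 had larger distances, to Cmya5 (0.42), Dhrs7c (0.49) and Ppp1r3a (0.49), and the neighbours of Fbxo32 were 1700025G04Rik, Ptpn3 and Lama5 (0.17 each). Trim63 also had the widest range over the 9 libraries on that log2 scale, 6.45 against 2.92 to 4.45. The distance is not scaled by range, so it does not set the pattern of Trim63 apart.

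Markers of other tissues that contain striated muscle or surround nerve gave these sums. The 5 heart muscle markers summed to 6.16, 13.9 and 9.70 CPM in tumour-bearing mice 17, 21 and 22, against 0.470 to 36.6 CPM in sEV and 0.100 to 40.4 CPM in untreated mice. Of these, Sln, sarcolipin, which skeletal muscle also makes, had 3.26, 9.06 and 5.25 CPM in tumour-bearing mice and 0 counts elsewhere, and the atrial hormone Nppa had 0 to 2 counts in each of the 9 libraries. The 5 nerve and Schwann cell markers summed to 64.4 to 115 CPM in tumour-bearing, 50.2 to 70.1 CPM in sEV and 44.6 to 151 CPM in untreated mice. Neither list set the tumour-bearing libraries apart from both other groups. The 5 mammary epithelium markers summed to 8.07 to 18.0 CPM in tumour-bearing, 24.5 to 177 CPM in sEV and 11.7 to 2091 CPM in untreated mice, and the 5 brown fat markers to 96.7 to 181, 31.0 to 273 and 6.50 to 71.5 CPM.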

How the data were processed

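The authors trimmed paired-end reads with SeqPrep and Sickle, mapped them with HISAT2, used StringTie for assembly and quantified genes with RSEM, per the study's methods. By contrast, the submitters' processing notes list Bowtie 0.12.2, mm8 and mm9. The annotation was not given, and 2 kits (TruSeq and SMARTER) are named in the labels. Coordinates and exon lengths are those of GENCODE M21 and promoters those of RefSeq, both on GRCm38. The deposited table held expected counts (RSEM estimates, often not whole) and columns headed TPM. The deposited TPM columns were treated as a score, because their totals were 0.697 to 1.281 times that of a plain TPM and genes with 0 counts could have values above 0.

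Counts, rounded to whole numbers, were tested with edgeR 4.0.16 under R 4.3.3 (filterByExpr with a minimum count of 10, TMM scaling, quasi-likelihood test, 1 term for group, all 9 libraries in 1 fit). Of the gene IDs, 17876 were kept, and the biological coefficient of variation was 62.8%. The threshold was a Benjamini-Hochberg adjusted p of 0.05 over all genes kept, and SE was worked back from the test. DESeq2 1.42.0, limma 3.58.1 on log2(TPM column + 1), other scaling, no filter, fewer libraries and a term for sets of libraries were alternatives. The edgeR script was tested on simulated data. Floors are 3 counts per library, and intervals are 95% exact binomial. The members and lists were chosen with earlier results of these data known. The text names all 10 members, up to 6 genes of each list by smallest edgeR p (up to 10 called ones), and the 3 genes nearest in pattern to each member kept by the filter. Mature muscle RNA is the summed CPM of 24 genes, used where it rested on at least 300 counts, which all 9 libraries met.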

Additional observations from a re-analysis of the deposited data

How the results depend on the processing

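The count of the 10 genes called was 0 by edgeR in each comparison and changed with the tool and the fit. In tumour-bearing versus untreated mice it was 4 by DESeq2 and 1 (Myf6) without the filter on low counts, and 0 under the other 15 alternatives. In tumour-bearing versus sEV mice it was 5 by DESeq2, 1 without the filter, 1 with only the 2 groups compared, and 0 to 1 when each library was left out in turn, with 1 (Myf6) without untreated 4, 7 or 10. In sEV versus untreated mice it was 0 under all 17. No called value reversed its sign. Uncalled Fbxo32 in tumour-bearing versus untreated mice turned from -0.59 to 0.68 without untreated 7, to 0.98 without the libraries holding ovary or much smooth muscle RNA, to 1.03 with a term for 3 sets of libraries and to 0.53 by limma on the TPM columns, and the cause was not tested. The 3 sets of that term were inferred from the same TPM columns, which set tumour-bearing 17 and 22 and untreated 7 apart, and no label gives them. With that term, tumour-bearing 21 alone is set against untreated 4 and 10, so the Fbxo32 value of 1.03 says nothing about stability. Without the ovary libraries, or without these and untreated 7, edgeR called 0 genes of all those tested. These fits leave 1 sEV library, and the second also 1 untreated library, each assumed to vary like the other groups, so the counts of 0 and the Fbxo32 value of 0.98 say nothing about stability. Scaling by library totals alone moved the median of all genes by -0.33 in tumour-bearing versus untreated, -0.42 in tumour-bearing versus sEV and 0.12 in sEV versus untreated mice and changed no call of the 10 genes. Set against Acta1, Ckm and Mylpf alone as the muscle RNA, the tumour-bearing means per 1000 counts were 1.17 for Myog, 4.49 for Myf6, 11.9 for Trim63, 1.35 for Mstn and 2.29 for Chrna1, higher by construction since fewer genes are summed. With the TPM columns they were 0.228 for Mstn and 0.179 for Chrna1, against 0.408 and 0.686 on counts, and 0.259 for Myog, 1.34 for Myf6 and 3.69 for Trim63. No paired analysis was possible because the replicate numbers are mouse numbers and no number is shared between groups. Depth limits Myod1, Myf5, Pax7 and Chrng, which had at most 20 counts in any library.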

Other observations

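The counts of Trim63 and Myf5 in the sEV group were both 19, 0 and 7 in EV 36, 37 and 41, although the genes lie on different chromosomes and differ in the other groups. Equal sets of 3 low counts were common. Of 1093 gene IDs with 20 to 32 counts summed over the sEV group, 167 shared all 3 counts with another ID, and of 1029 such IDs in the untreated group, 162 did. Each of the 10 genes had 1 gene ID for its symbol.

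The deposited TPM columns gave values above 0 to regulators that had 0 counts. In untreated 4, 7 and 10, Myf6 had 0 counts and TPM column values of 1.37, 2.62 and 1.37, and Myog had 0 counts and 0.491, 0.734 and 0.491. The reverse was also found. In tumour-bearing 17, Myod1, Myog, Myf6 and Chrna1 had 5, 20, 59 and 25 counts and a TPM column value of 0. On these columns limma gave Myf6 a log2 difference of 0.79 for tumour-bearing over untreated mice, where edgeR on the counts gave 10.53. For these 4 genes a missing call by limma therefore does not show a lack of change.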
